A study of Rattus norvegicus with 9 samples.

Results

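The 75 genes described here were far higher in hypoxic rat pulmonary artery smooth muscle cells than in normoxic ones and far lower again when quercetin was given in hypoxia. They were picked from the deposited log2 value table by size alone: the hypoxia mean lay at least 2 (log2), which is 4-fold, above the normoxia mean, and the quercetin mean at least 2 below the hypoxia mean. The probe also had to be well above background on all 3 hypoxia arrays and to carry a gene symbol, and a gene was taken once, from its brightest qualifying probe. Of 41012 non-control probes, 207 passed both thresholds, 110 of these were well above background in hypoxia and 86 of those bore a symbol, which gave 75 of the 15803 symbols on the array, or 0.475%. Both steps up and down are therefore given as a description, with no test. The comparison left for a test is that of quercetin-treated hypoxic cells with normoxic cells, made on the same arrays. Of the 75 genes, 35 (46.7%) passed the test for a difference from normoxia, beside 44.6% of all tested probes. The genes are therefore named here by their rule and not as fully reversed.

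Pulmonary artery smooth muscle cells of male SD (Sprague Dawley) rats were profiled in generation 4 of culture in 3 groups of 3 arrays each. Normoxic cells were kept at 37 °C in an ordinary incubator, hypoxic cells in a sealed chamber with 1% oxygen and 5% carbon dioxide, and cells of the third group in hypoxia with quercetin, a plant flavonol. By the labels' single protocol for every sample, cells went 24 h without serum and then spent 24 h in medium with 10% serum and either quercetin or 0.1% DMSO; a separate duration of hypoxia is not given. No normoxic cells received quercetin, and the sources used here give no dose. Nothing in the labels says that arrays of a group came from separate cultures, so a p-value here speaks of the spread between these arrays only, some or all of which may be technical. The cells are cultured, without the endothelium and blood flow of a vessel, and serum starvation is part of the protocol shared by the groups.

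Hypoxia-inducible factors (HIF) are transcription factors that are stabilised when oxygen is short and bind a short core sequence near their target genes, such as those for carbonic anhydrases and angiogenic growth factors. Smooth muscle cells of the lung artery change their cytoskeleton, matrix and growth programmes under low oxygen, and flavonols such as quercetin act on many kinases and redox enzymes. Keratins and laminin-332 are known mainly from epithelia, and the myosin heavy chains of striated muscle from skeletal muscle and heart.

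Levels below are log2 processed intensities relative to the 75th percentile of the same array, differences are log2 differences of group means ± standard error with 3 arrays a group, and the 3 values of a group are listed by replicate number. That percentile was an intensity of 439 to 462 on hypoxia arrays, 450 to 504 on quercetin arrays and 627 to 640 on normoxia arrays. Between 53% and 74.3% of probes were well above background on an array, and no spot was saturated. Of 10 smooth muscle markers, 9 had a probe, and each of these was well above background on all arrays. Of 10 endothelial markers, Pecam1, Tek, Tie1, Emcn and Cldn5 were above background on no array, as were Itgam, Aif1, Cd3e and Cd79b of 12 leukocyte markers. Eng was above background on all 9 arrays, and Cdh5 and Kdr were on all normoxia arrays, as were the other 8 leukocyte markers, of which Cd68, Cd14, Lyz2, Cd74 and Tyrobp were on all 9. Of 10 fibroblast markers, 8 were well above background on all normoxia arrays and 6 on all hypoxia and all quercetin arrays, and their summed linear level (relative to the 75th percentile) spanned 463 to 516 on normoxia arrays, 647 to 740 on hypoxia arrays and 441 to 539 on quercetin arrays. The smooth muscle markers summed to 533 to 815, 1056 to 1175 and 441 to 535. Single fibroblast genes did not all follow their sum. Of 8 tested, 2 rose and 4 fell under hypoxia (limma, adjusted p under 0.05), with a median difference of -0.68. Scaled to 6 labelling spike-in probes instead, 0 rose and 5 fell. Quercetin-treated cells differed from normoxic ones by a median of -2.45, with 1 gene higher and 7 lower. The part of these other markers in the results was not tested. The first of the 3 slides, scanned on an earlier date than the rest, carried normoxia replicates 1 and 2. The second carried normoxia replicate 3 beside the hypoxia arrays, and the third the quercetin arrays. Quercetin and its slide therefore cannot be told apart, while hypoxia can be set against normoxia replicate 3 within a slide.

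The promoters of 5 genes are shown because they belong to genes the results turn on: Ankrd37 and Car12 of the hypoxia response, G0s2 and Lamb3, which are neighbours on a chromosome, and Acta1 of the striated muscle genes. The windows are from RefSeq on build GRCr8 and run from 250 bases before to 50 bases after the annotated start, 5′ to 3′ along the gene. They lie at chr16:53001257-53001556 on the plus strand for Ankrd37, chr8:76169565-76169864 on the plus strand for Car12, chr13:107335899-107336198 on the minus strand for G0s2 and chr13:107362303-107362602 on the plus strand for Lamb3. Capitals mark the HIF core on either strand, spelled ACGTG or GCGTG. Positions are counted from 1 at the annotated start, with negative numbers before it.
Ankrd37: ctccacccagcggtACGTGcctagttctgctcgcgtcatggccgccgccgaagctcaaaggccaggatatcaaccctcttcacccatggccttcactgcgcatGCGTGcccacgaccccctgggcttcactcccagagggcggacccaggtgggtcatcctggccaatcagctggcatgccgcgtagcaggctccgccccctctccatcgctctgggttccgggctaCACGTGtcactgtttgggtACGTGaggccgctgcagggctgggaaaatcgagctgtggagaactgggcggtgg
Car12: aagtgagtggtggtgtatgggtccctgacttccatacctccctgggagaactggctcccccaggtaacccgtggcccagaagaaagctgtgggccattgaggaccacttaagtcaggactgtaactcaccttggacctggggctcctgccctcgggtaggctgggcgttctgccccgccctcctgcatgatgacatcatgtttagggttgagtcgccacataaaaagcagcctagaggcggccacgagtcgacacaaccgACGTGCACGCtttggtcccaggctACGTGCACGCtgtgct
G0s2: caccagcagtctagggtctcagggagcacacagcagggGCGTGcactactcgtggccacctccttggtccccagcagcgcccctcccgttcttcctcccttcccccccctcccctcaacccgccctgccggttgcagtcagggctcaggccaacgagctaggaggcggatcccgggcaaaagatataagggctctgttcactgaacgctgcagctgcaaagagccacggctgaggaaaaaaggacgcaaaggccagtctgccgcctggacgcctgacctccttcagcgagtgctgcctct
Lamb3: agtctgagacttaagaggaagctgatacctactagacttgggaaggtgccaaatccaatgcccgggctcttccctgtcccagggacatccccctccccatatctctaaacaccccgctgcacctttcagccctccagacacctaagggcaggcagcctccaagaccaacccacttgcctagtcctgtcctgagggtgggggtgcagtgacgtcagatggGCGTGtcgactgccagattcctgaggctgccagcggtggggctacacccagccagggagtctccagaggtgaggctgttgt
Ankrd37 holds ACGTG at -236, -23, -22 and -4 and GCGTG at -147, where the matches at -23 and -22 are both strands of a single CACGTG. In Car12 the matches lie after the start, ACGTG at 11 and 35 and GCGTG at 16 and 40, each GCGTG following directly on an ACGTG. G0s2 holds GCGTG at -212 and Lamb3 at -31. For Acta1, at chr19:68784145-68784444 on the minus strand of GRCr8, capitals mark the myogenic E-box CAGCTG at -237, a CArG box (the serum response factor motif) at -94, the MCAT motif CATTCC at -67 and the TATA box TATAAA at -29. The Acta1 window also holds the HIF core ACGTG at 8, left in lower case.
Acta1: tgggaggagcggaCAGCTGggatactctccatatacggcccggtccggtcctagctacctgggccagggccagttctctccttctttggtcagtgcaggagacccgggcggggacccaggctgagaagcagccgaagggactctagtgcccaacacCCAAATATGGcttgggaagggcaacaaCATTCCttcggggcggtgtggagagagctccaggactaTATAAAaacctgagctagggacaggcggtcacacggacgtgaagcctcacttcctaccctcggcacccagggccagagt

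Promoter windows were found by symbol for 58 of the 75 genes. A HIF core in either spelling stood in 38 of these 58 windows, or 65.5%, against 42.9% of all 27457 windows and 60.7% of the 9645 windows of genes with a tested probe. ACGTG alone was in 31.0% of the members' windows, 19.7% of all and 25.4% of tested genes, and GCGTG in 44.8%, 31.1% and 48.9%. The median GC content was 61.0% in the members' windows, 52.3% in all and 60.7% in those of tested genes. Against genes measured in these cells the shares were close, and nothing particular to the set is read from them. The myogenic E-box CAGCTG was in 22.4% of members' windows and 15.7% of those of tested genes. The motifs were chosen after the genes were known, and a match is a description of the letters, not a binding site.

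The median of the 75 genes followed the rule's shape on every array. That median level was -3.17, -3.22 and -2.92 on the normoxia arrays, -0.45, -0.36 and -0.48 on the hypoxia arrays and -3.33, -3.30 and -3.45 on the quercetin arrays. On this scale the hypoxia minus normoxia difference had a median of 2.91 and ran from 2.03 to 5.79, and the quercetin minus hypoxia difference had a median of -2.75 and ran from -5.93 to -1.74. Over all 26646 tested probes these medians were 0.09 and -0.06. Hypoxia and normoxia arrays did not overlap for any of the 75 genes, beside 71.8% of all tested probes, and hypoxia and quercetin arrays overlapped for 1, Slc32a1, beside 71.1% without overlap; the rule used both differences, so nothing is read from this. The median standard deviation of a gene over the 3 arrays was 0.45 in normoxia, 0.09 in hypoxia and 0.22 with quercetin. Set against normoxia replicate 3 alone, which shared the slide of the hypoxia arrays, the median difference was 2.66 and 68 of the 75 genes still lay at least 2 higher in hypoxia. Normoxia replicate 2 was the lowest normoxia array for 46 genes and normoxia replicate 3 the highest for 47. In whole-culture RNA, fewer cells of a type and less RNA per cell cannot be told apart.

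**Figure D1:**
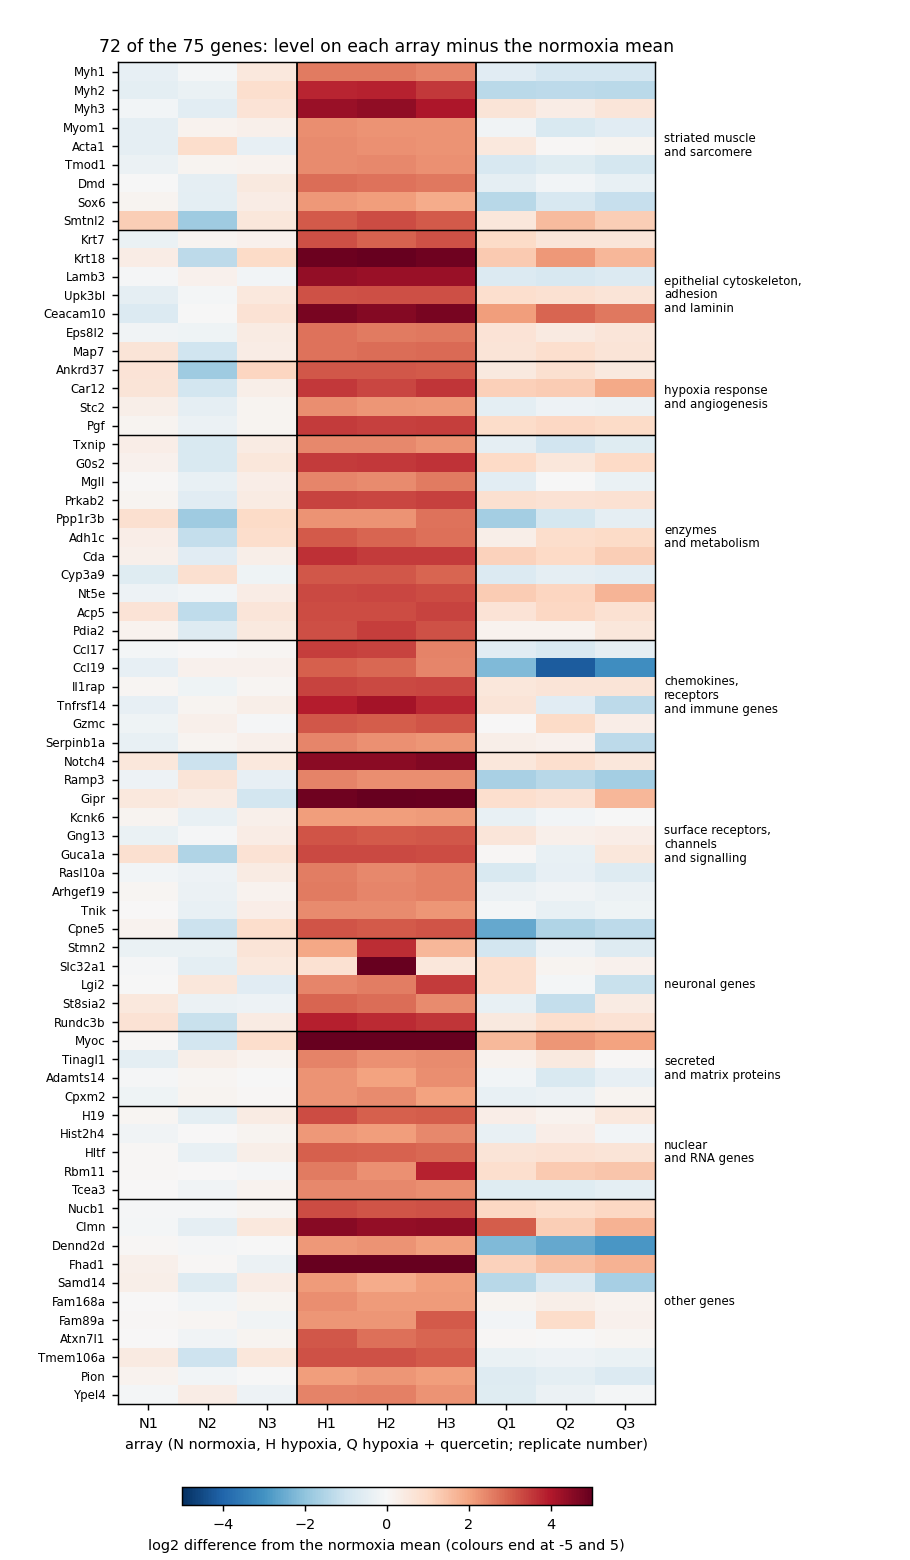
Level of 72 of the 75 genes on each of the 9 arrays, as a log2 difference from the gene's normoxia mean (colour, ending at -5 and 5), with genes grouped by role and arrays by group. The hypoxia columns are red in all rows except for Slc32a1, whose red rests on hypoxia replicate 2, and the quercetin columns run from blue (Ccl19) to red (Ceacam10).

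With quercetin, hypoxic cells lay above normoxic ones for 20 of the 75 genes and below for 15, while 40 did not pass the test (limma, adjusted p under 0.05 over all tested probes). Among all 26646 tested probes 22.8% passed as higher and 21.8% as lower, or 44.6% in either direction, so the members' share of 46.7% was near the background. Scaled to 6 labelling spike-in probes instead, which moved the median of all probes from 0.03 to -0.41, 10 of the 75 genes passed as higher and 29 as lower, and of all probes 1762 of 14447 calls were higher against 6076 of 11879. The median quercetin minus normoxia difference of the 75 genes was 0.21, from -3.16 to 2.54, and 0.03 over all tested probes. The difference lay within 1 of 0 for 55 genes, above 1 for 12 and below -1 for 8, so 20 genes were at least 2-fold apart from normoxia, beside 13.3% of all probes. For 24 genes the whole 95% interval lay within 1 of 0, beside 67.9% of all probes. Of the 40 genes that did not pass, 22 had a wider interval, so for these a 2-fold difference from normoxia was not excluded. Normoxia and quercetin arrays overlapped for 37 genes and did not for 38, where 53.5% of all probes did not. For the 39 genes well above background on all 9 arrays, the quercetin step was between 52.7% and 166% of the hypoxia step, with a median of 85.5%; it was smaller than the hypoxia step for 26 genes and larger for 13. With scan day as a block, which rests the comparison on normoxia replicate 3, 7 genes passed as higher and 15 as lower.

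**Figure D2:**
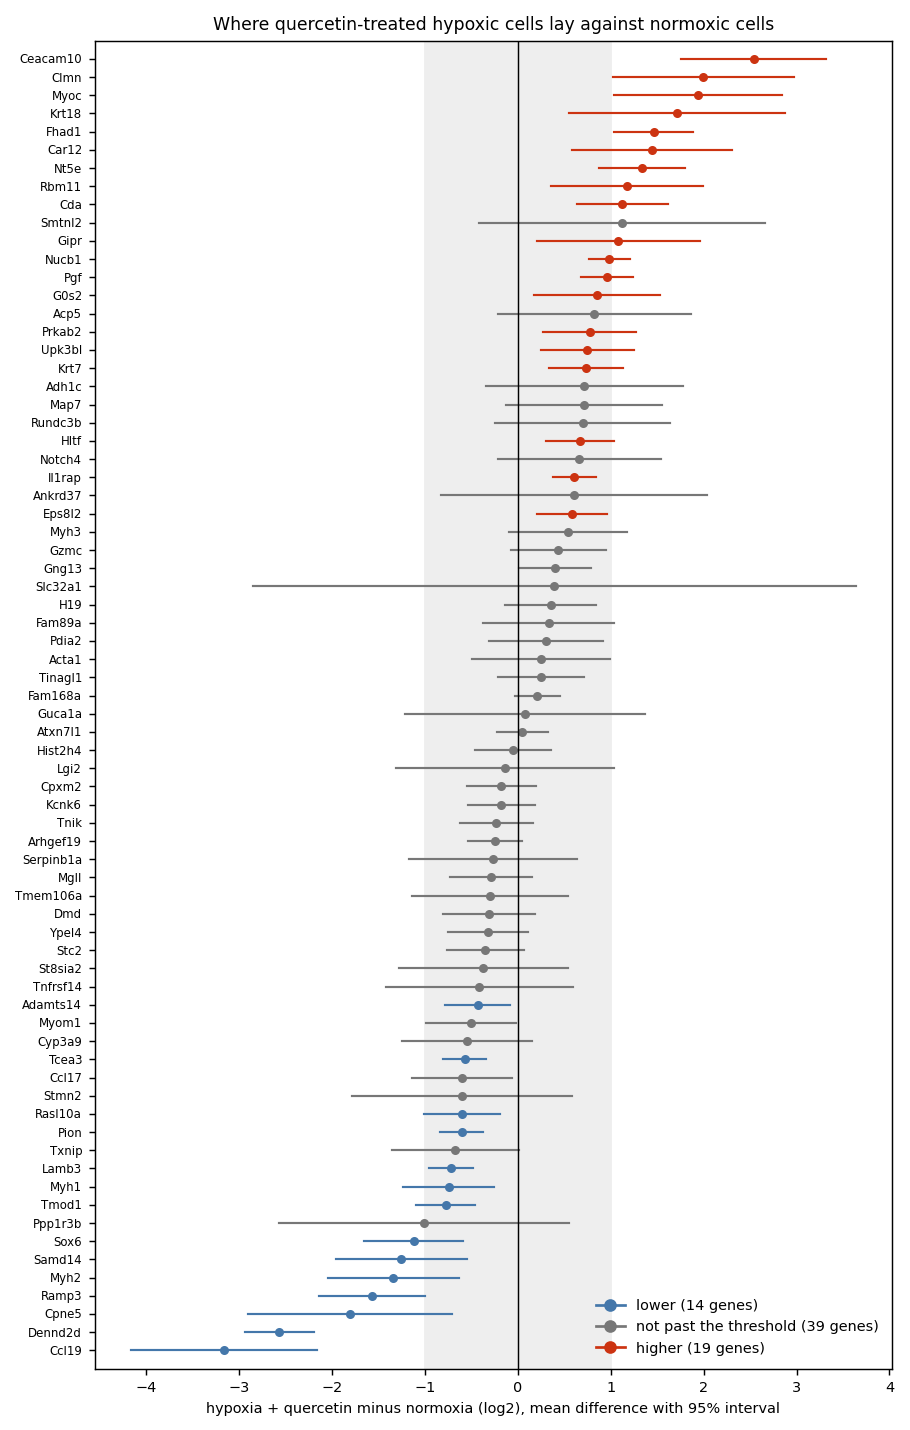
Hypoxia with quercetin minus normoxia for 72 of the 75 genes (log2), as the mean difference with its unadjusted 95% interval, coloured by the call at adjusted p under 0.05; the grey band spans -1 to 1. Ccl19 at -3.16 and Ceacam10 at 2.54 are the ends, and 53 of the drawn genes have their point inside the band.

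Keratins, a laminin chain and other genes known from epithelia made up 8 members. Their roles, like those of the other groups below, were assigned after the values were seen. Lamb3, the β3 chain of laminin-332, stood at 0.27, 0.55 and 0.21 in normoxia, at 4.72, 4.64 and 4.66 in hypoxia and at -0.34, -0.46 and -0.34 with quercetin. The 3 groups did not overlap, and quercetin took the gene below its normoxic level on all 3 arrays. The hypoxia minus normoxia difference was 4.33 ± 0.10 and 4.47 against normoxia replicate 3 alone. Quercetin minus hypoxia came to -5.05 ± 0.10, and quercetin minus normoxia was -0.72 ± 0.10 (adjusted p = 8.4e-04), a call that held under all 20 alternatives. Its 2 other probes gave 3.49 and 4.32 for the first step and -4.11 and -5.06 for the second. Lama3, the α3 chain of the same laminin, was too dim to be tested. Of the 5 other tested genes of the hemidesmosome and laminin-332 list, 1 was lower in hypoxia and 4 did not pass, beside 34.6% higher and 29.7% lower of all tested probes, or 64.3% in all. The lower gene was Itga6, an integrin subunit that pairs with β4 (-0.55 ± 0.14, adjusted p = 0.0083; not past the test with normexp, -0.34, or with the slide as a fixed block, -0.51). With quercetin 4 of the 5 were lower than in hypoxia, beside 31.4% of all probes (27.3% were higher and 58.7% differed); normexp left 2 of the 5.

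The simple keratins Krt18 and Krt7, filament proteins of single-layered epithelia, were members, and Krt8 moved with them at smaller size. Krt18 stood at -1.97, -3.64 and -1.35 in normoxia, at 2.60, 2.67 and 2.56 in hypoxia and at -1.01, -0.16 and -0.66 with quercetin. Its normoxia arrays spread over more than 2 units, with replicate 2 lowest, and every quercetin array lay above every normoxia array. The differences were 4.93 ± 0.51 and -3.22 ± 0.51, and the level with quercetin stayed 1.71 ± 0.51 above normoxia (adjusted p = 0.025), a call lost without quercetin replicate 2 (1.49) or 3 (1.73), with no filter on dim probes and with scan day as a block (0.74). Krt7 stood at 1.76, 2.24 and 2.32 in normoxia, at 5.34, 5.04 and 5.31 in hypoxia and at 3.07, 2.73 and 2.73 with quercetin. The 3 groups did not overlap. With quercetin Krt7 stayed 0.73 ± 0.17 above normoxia (adjusted p = 0.0090), which did not pass under spike-in scaling (0.30), normexp background correction (0.64) or scan day as a block (0.52). Krt8, the usual partner of Krt18, rose by 2.15 ± 0.23 in hypoxia (adjusted p = 8.9e-05) and fell with quercetin (-1.48 ± 0.23, adjusted p = 8.4e-04), though neither step passed with normexp (0.64 and -0.22). Of the 12 other tested genes of the keratin and epithelial junction list, 5 rose in hypoxia and 7 did not pass. With quercetin 5 fell, 4 of them among those that had risen. Normexp left 2 and 2. Of all tested probes 34.6% rose in hypoxia and 31.4% fell with quercetin. Tjp3, a tight junction scaffold, rose by 1.97 ± 0.17 (adjusted p = 3.0e-05) and changed with quercetin by -1.62 ± 0.17, again not past the test with normexp (0.44 and -0.13). The desmosomal plakophilins Pkp2 and Pkp1 rose by 1.30 ± 0.15 and 1.53 ± 0.21. Median changes of those 12 genes were 0.57 and -0.57, beside 0.09 and -0.06 over all probes.

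Among the epithelial markers Epcam, Cdh1, Krt19 and Esrp1 were above background on no array, while Krt14, Krt18 and Cldn4 were on all 9 and Krt5, Krt8 and Scgb1a1 on all normoxia and hypoxia arrays. Of 12 epithelial markers, 7 were well above background on all normoxia arrays, 6 on all hypoxia arrays and 3 on all quercetin arrays. The summed linear level of the list, relative to the 75th percentile, was 6.67 to 7.10 in hypoxia, against 0.508 to 1.12 in normoxia and 1.07 to 1.44 with quercetin, most of it Krt18 in hypoxia: without Krt18 it was 0.734 to 0.811, 0.382 to 0.729 and 0.505 to 0.577. For the 9 mesothelial markers on the array the sum was 66.2 to 75 in hypoxia, against 20.8 to 22.6 in normoxia and 15.2 to 17.2 with quercetin. Without Krt7 and Krt18 these sums were 27.0 to 29.6, 15.9 to 17.3 and 7.71 to 8.29, and Krt19, a mesothelial marker too, was above background on no array. Msln, the mesothelial surface protein mesothelin, rose by 0.76 ± 0.08 in hypoxia (adjusted p = 7.4e-05; 0.25 and not past the test under spike-in scaling) and fell with quercetin (-1.89 ± 0.08, adjusted p = 2.3e-06). The part of any such cells in the keratin values was not tested.

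Other members of epithelial kind were Upk3bl, Ceacam10, Eps8l2 and Map7. Ceacam10, of the carcinoembryonic antigen family, was above background on no normoxia array, on all hypoxia arrays and on 2 quercetin arrays. It was at least 19.2-fold higher in hypoxia than in normoxia and at least 4.34-fold higher with quercetin than in normoxia (adjusted p = 5.8e-04). Its family has near-identical copies, so the probe may read more than this gene, and a further probe gave 2.75 and -1.63 for the 2 steps. Upk3bl, a uroplakin-like membrane protein, and Eps8l2, an actin-binding adaptor, stayed 0.75 ± 0.22 (adjusted p = 0.023) and 0.58 ± 0.16 (0.020) above normoxia, and neither passed under spike-in scaling or with scan day as a block. Leaving out normoxia replicate 1 or 2 or quercetin replicate 1 ended both calls, as did leaving out quercetin replicate 2 for Upk3bl and 3 for Eps8l2. Of the 8 genes in this group, 5 were higher than in normoxia with quercetin, 2 were lower and 1, Map7, did not pass. Among all tested probes 22.8% passed as higher and 21.8% as lower.

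**Figure D3:**
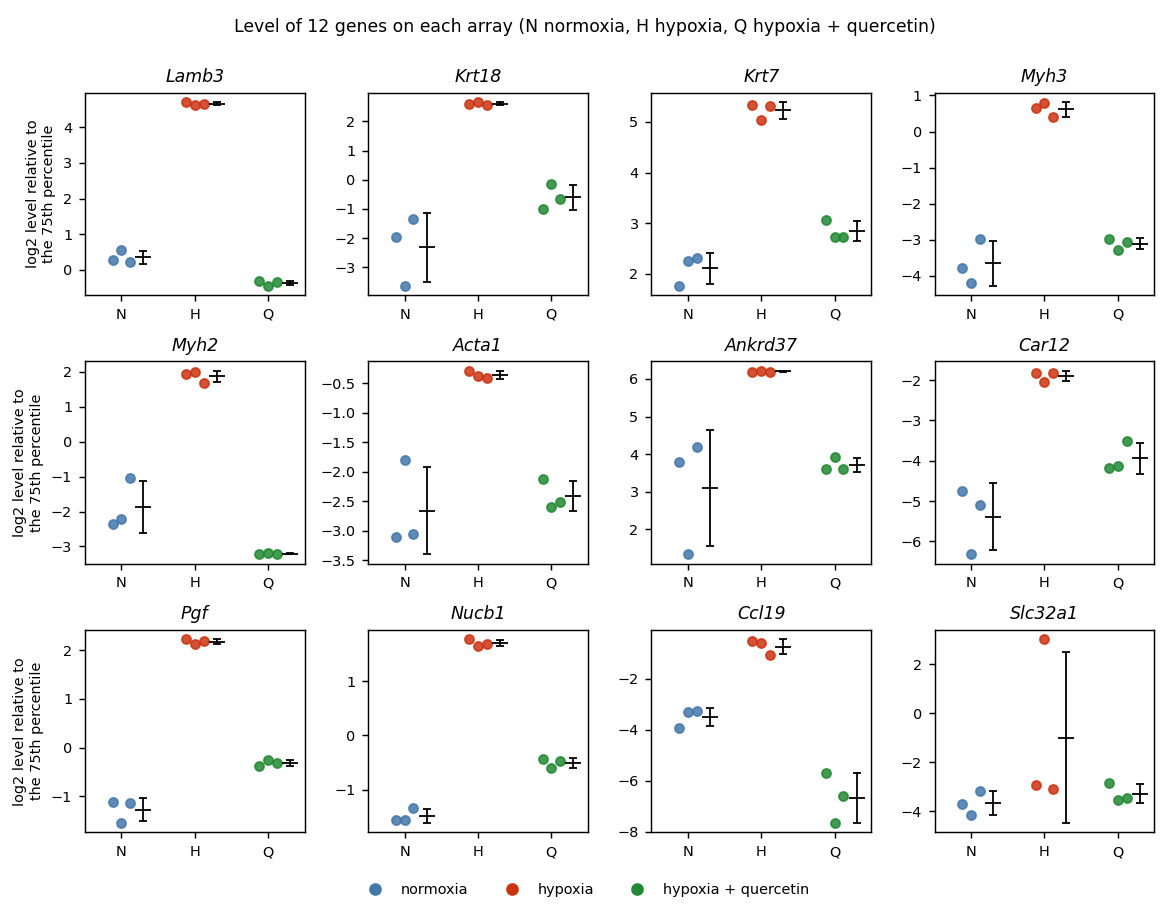
Level of 12 of the genes on each array (log2 relative to the 75th percentile of the array), with the mean and standard deviation of the 3 arrays of a group beside the points; vertical axes differ between panels. Lamb3 drops below normoxia with quercetin, Krt18 and Pgf stay above it, Ankrd37 overlaps it, with normoxia replicate 2 far below the rest, and Slc32a1 is high on hypoxia replicate 2 only.

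Of the 22 tested genes of the striated muscle list, 5 were members: Myh3, Myh2, Myh1, Myom1 and Acta1. Of the 9788 symbols well above background in hypoxia, 75 were members. The lists were chosen with earlier results of these data known, so no enrichment is read from this count. Myh3, the embryonic myosin heavy chain, stood at -3.79, -4.19 and -2.97 in normoxia, at 0.65, 0.80 and 0.39 in hypoxia and at -2.99, -3.29 and -3.06 with quercetin. The hypoxia minus normoxia difference of 4.27 ± 0.28 was the largest among them, and its normoxia and quercetin arrays overlapped (0.54 ± 0.28, adjusted p = 0.15). Myh2, the heavy chain of fast oxidative fibres, stood at -2.36, -2.22 and -1.03 in normoxia, at 1.92, 1.99 and 1.68 in hypoxia and at -3.22, -3.19 and -3.22 with quercetin. The quercetin arrays lay close together and below every normoxia array, with a mean difference of -1.34 ± 0.31 (adjusted p = 0.0082). Myh1, the heavy chain of fast glycolytic fibres, stood at -0.40, -0.11 and 0.51 in normoxia, at 2.59, 2.59 and 2.42 in hypoxia and at -0.55, -0.84 and -0.85 with quercetin. It too was lower than in normoxia (-0.75 ± 0.21, adjusted p = 0.021), a call lost without quercetin replicate 2 (-0.70) or 3 (-0.69), with normexp and with no filter on dim probes. These heavy chains share long stretches of sequence, so their probes may read each other's RNA and the split between the 3 genes is uncertain.

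Acta1, the actin of skeletal muscle thin filaments, stood at -3.12, -1.80 and -3.06 in normoxia, at -0.29, -0.38 and -0.42 in hypoxia and at -2.12, -2.60 and -2.52 with quercetin. Normoxia replicate 2 stood above the other normoxia arrays and above all quercetin arrays, so the groups overlapped, and the difference of 0.25 ± 0.32 did not pass (adjusted p = 0.57). Myom1, the M-band protein myomesin, stood at -2.42, -1.81 and -1.71 in normoxia, at 0.36, 0.26 and 0.28 in hypoxia and at -2.14, -2.75 and -2.55 with quercetin. Its 3 other tested probes, each also past the rule, gave quercetin minus normoxia differences of -0.50, -0.53 and -0.99, beside -0.50 ± 0.21 for the probe used (adjusted p = 0.085). Tmod1, which caps the slow-growing ends of thin filaments, stood at -3.17, -2.73 and -2.71 in normoxia, at -0.53, -0.48 and -0.59 in hypoxia and at -3.69, -3.49 and -3.77 with quercetin. It was lower with quercetin than in normoxia (-0.78 ± 0.14, adjusted p = 0.0024), a call lost with normexp (-0.035), and its other probe gave -0.31. Dmd, dystrophin, which ties actin to the membrane, stood at -0.09, -0.52 and 0.44 in normoxia, at 2.74, 2.65 and 2.58 in hypoxia and at -0.51, -0.18 and -0.41 with quercetin. Groups without hypoxia overlapped (-0.31 ± 0.22, adjusted p = 0.28), and of its 5 other tested probes 4 gave 1.35 to 1.99 for the hypoxia step and 1 gave -0.35. Sox6, a transcription factor that acts in muscle fibre type and cartilage, differed from normoxia by -1.12 ± 0.23 with quercetin (adjusted p = 0.0051), with 1 quercetin array above background; a further probe gave 0.50 and -0.93 for the 2 steps. Smtnl2, a smoothelin-like protein, differed by 1.12 ± 0.67 (adjusted p = 0.21). In the whole group of 9 genes, 4 were lower than normoxia with quercetin and 5 did not pass, beside 21.8% lower of all tested probes.

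Among the 17 other tested genes of the striated muscle list, 8 rose in hypoxia and 3 fell, beside 34.6% and 29.7% of all probes, and with quercetin 1 rose and 9 fell, beside 27.3% and 31.4%. The first count turned under spike-in scaling, which gave 3 higher and 5 lower, and normexp gave 3 higher in hypoxia and 3 lower with quercetin. Tnni2, fast skeletal troponin I, rose by 0.84 ± 0.10 (adjusted p = 1.9e-04; not past the test under spike-in scaling, 0.33, or with normexp, 0.47) and did not pass with quercetin (-0.10 ± 0.10, adjusted p = 0.46). Tnnc1, the troponin C of heart and slow muscle, rose by 1.38 ± 0.20 (adjusted p = 4.5e-04) and with quercetin fell past its normoxic level (-2.64 ± 0.20, and -1.26 ± 0.20 against normoxia, adjusted p = 0.0013). Myl4, an atrial and embryonic light chain, and Tnnc2, fast troponin C, fell by 1.14 ± 0.14 and 0.97 ± 0.17 in hypoxia (adjusted p = 1.5e-04 and 0.0013); with normexp neither passed (-0.61 and -0.19). Myog, Myod1, Ckm, Myh7 and Myh8, which mark differentiated or developing striated muscle, were not well above background on all arrays of any group and were not tested. Of 9 tested smooth muscle markers, 5 rose in hypoxia and 7 fell with quercetin; spike-in scaling gave 3 higher and 2 lower in hypoxia. Des, the muscle filament protein desmin, rose by 3.39 ± 0.16 (adjusted p = 2.5e-06) and with quercetin changed by -1.31 ± 0.16 (-0.79 and not past the test with normexp); it stayed 2.07 ± 0.16 above normoxia (adjusted p = 3.8e-05). Cnn1, calponin, rose by 1.33 ± 0.13 and with quercetin changed by -2.50 ± 0.13, to -1.17 ± 0.13 against normoxia (adjusted p = 2.1e-04). The summed level of the smooth muscle markers was 1056 to 1175 in hypoxia, against 533 to 815 in normoxia and 441 to 535 with quercetin, so it moved with the striated genes; its part in their values was not tested.

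**Figure D4:**
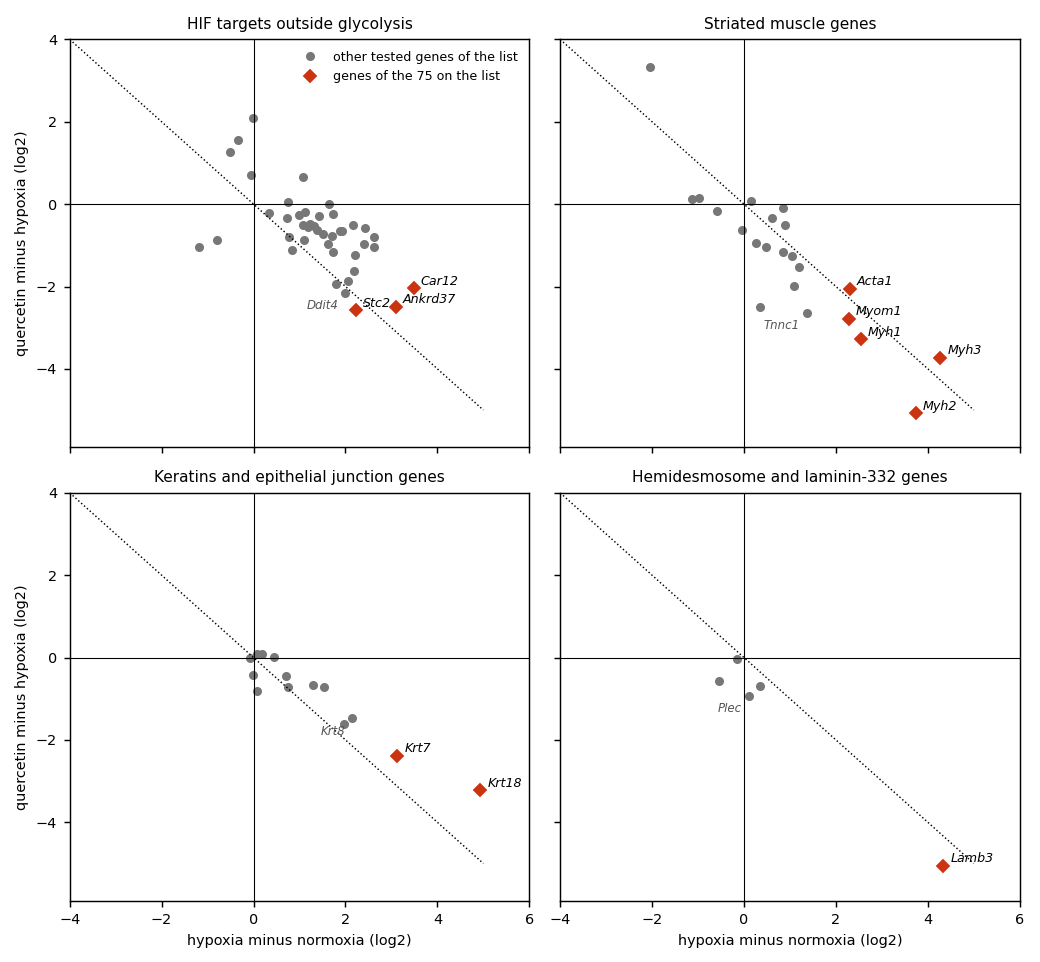
Hypoxia minus normoxia against quercetin minus hypoxia (log2) for tested genes of 4 lists; diamonds are genes of the set, grey points the other genes (4 of the 5 for laminin-332), and on the dotted line the quercetin step undoes the hypoxia step. The diamonds lie at the lower right because the rule put them there; below the line a gene ends under its normoxic level, as Myh2, Myh1, Lamb3 and Tnnc1 do.

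Genes of the hypoxia response in the set were Ankrd37, Car12 and Stc2, with Pgf from the growth factor list. Ankrd37, an ankyrin repeat protein induced through HIF, stood at 3.79, 1.33 and 4.19 in normoxia, at 6.20, 6.22 and 6.18 in hypoxia and at 3.59, 3.91 and 3.61 with quercetin. Normoxia replicate 2 stood over 2 units below its fellows, and the quercetin arrays lay within the normoxia range (0.60 ± 0.63, 95% interval -0.83 to 2.04, adjusted p = 0.47). Against normoxia replicate 3 alone the hypoxia step was 2.01 where the mean gave 3.10 ± 0.63, and without normoxia replicate 2 the gene no longer met the rule. Car12, a membrane carbonic anhydrase that regulates pH outside the cell, stood at -4.75, -6.32 and -5.09 in normoxia, at -1.83, -2.06 and -1.81 in hypoxia and at -4.19, -4.13 and -3.50 with quercetin. Each quercetin array lay above each normoxia array, by 1.45 ± 0.38 in the mean (adjusted p = 0.014), a call lost without quercetin replicate 3 (1.23), with normexp (0.50) and with scan day as a block (1.15). Stc2, a secreted stanniocalcin, stood at -1.44, -2.18 and -1.59 in normoxia, at 0.58, 0.46 and 0.44 in hypoxia and at -2.23, -1.99 and -2.04 with quercetin. With quercetin it differed from normoxia by -0.35 ± 0.18 (95% interval -0.77 to 0.06). Quercetin replicates 2 and 3 lay inside the normoxia range, whose low end was normoxia replicate 2. All quercetin arrays lay below normoxia replicates 1 and 3. Pgf, placental growth factor, a ligand of the VEGF receptor Flt1, stood at -1.13, -1.56 and -1.15 in normoxia, at 2.23, 2.13 and 2.19 in hypoxia and at -0.38, -0.26 and -0.33 with quercetin. All 3 groups stood apart, and the 0.96 ± 0.12 left above normoxia (adjusted p = 4.6e-04) passed under all 20 alternatives.

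Of 39 other tested HIF targets outside glycolysis, 27 rose in hypoxia and 1 fell, beside 34.6% and 29.7% of all tested probes. With quercetin 5 rose and 13 fell, beside 27.3% and 31.4%. All 13 that fell were among the 27 that had risen. The median steps of the 39 were 1.39 and -0.63. For 24 of the 27 the quercetin step was smaller than the hypoxia step. With quercetin 20 of the 39 were higher than in normoxia, beside 22.8% of all tested probes. With the slide as a block 12 of the 39 were higher in hypoxia, and under spike-in scaling 22 were higher and 4 lower. Plod2 and Plod1, collagen lysyl hydroxylases, rose by 1.31 ± 0.11 and 1.71 ± 0.14 and kept 0.78 ± 0.11 (adjusted p = 6.9e-04) and 0.93 ± 0.14 (0.0011) over normoxia. P4ha2, a collagen prolyl hydroxylase, rose by 1.89 ± 0.19 and kept 1.23 ± 0.19 (0.0011). Selenbp1, a selenium-binding protein, rose by 1.79 ± 0.16, fell by 1.93 ± 0.16 with quercetin and did not pass against normoxia (-0.14 ± 0.16, adjusted p = 0.51). Of 40 other tested growth factor genes 13 rose and 12 fell in hypoxia, near the shares of all tested probes (34.6% and 29.7%). With quercetin 15 rose and 10 fell, beside 27.3% and 31.4%. In hypoxia spike-in scaling gave 6 higher and 19 lower, and normexp 6 and 8; with quercetin normexp gave 8 and 4.

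Metabolic enzymes gave 11 members, 4 of them higher than normoxia with quercetin and 7 not past the test, beside 22.8% higher of all tested probes. G0s2, an inhibitor of the triglyceride lipase of fat cells, stood at 3.37, 2.41 and 3.73 in normoxia, at 6.68, 6.69 and 6.78 in hypoxia and at 4.17, 3.74 and 4.15 with quercetin. Its quercetin arrays lay above the normoxia arrays, and that margin over normoxia with quercetin (0.85 ± 0.30, adjusted p = 0.046) was lost under 12 of 20 alternatives, among them leaving out any single array but normoxia replicate 2 or 3. Txnip, the thioredoxin inhibitor whose RNA follows glucose metabolites, stood at 2.79, 1.67 and 2.87 in normoxia, at 4.84, 4.85 and 4.70 in hypoxia and at 2.00, 1.49 and 1.83 with quercetin. Quercetin replicate 2 was lowest of these arrays. Quercetin replicates 1 and 3 lay in the normoxia range, but below normoxia replicates 1 and 3. The quercetin minus normoxia difference was -0.67 ± 0.30 (adjusted p = 0.10), and without normoxia replicate 2 the gene no longer met the rule. Nt5e, the ectonucleotidase CD73 that makes adenosine, stood at -4.86, -4.72 and -4.21 in normoxia, at -1.30, -1.26 and -1.35 in hypoxia and at -3.33, -3.54 and -2.91 with quercetin. All quercetin arrays lay above all normoxia arrays, by 1.34 ± 0.20 (adjusted p = 0.0010), and only normexp background correction lost that call. Prkab2, a β subunit of AMP-activated kinase, and Cda, cytidine deaminase, kept 0.77 ± 0.22 (adjusted p = 0.020) and 1.12 ± 0.21 (0.0033) over normoxia; the first call was lost without quercetin replicate 1 (0.75) or 3 (0.77) and under 3 other settings, the second with scan day as a block (0.83). Mgll, monoacylglycerol lipase (steps of 2.46 ± 0.19 and -2.75 ± 0.19, and 1.23 and -1.53 at its other probe), differed from normoxia by -0.29 ± 0.19 and Ppp1r3b, which brings a phosphatase to glycogen, by -1.01 ± 0.68, and neither passed. Adh1c and Cyp3a9, an alcohol dehydrogenase and a cytochrome P450 from families of near-identical copies, are uncertain in identity; they differed by 0.72 ± 0.46 and -0.55 ± 0.31. Acp5, the tartrate-resistant phosphatase, and Pdia2, a disulfide isomerase, had intervals of -0.22 to 1.86 and -0.31 to 0.92.

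Immune genes were few and mixed. Ccl19, a ligand of the chemokine receptor CCR7, stood at -3.92, -3.31 and -3.29 in normoxia, at -0.54, -0.62 and -1.07 in hypoxia and at -5.71, -7.67 and -6.62 with quercetin. No quercetin array was well above background, so with quercetin it was at least 21.2-fold lower than in hypoxia and at least 3.11-fold lower than in normoxia (adjusted p = 6.9e-04). With normexp the log2 difference from normoxia was -0.18 and the call was lost. Ccl17, a ligand of CCR4, was likewise above background on no quercetin array, at least 6.38-fold below hypoxia; with 2 normoxia arrays above background, it did not pass against normoxia (adjusted p = 0.069) and no fold is given. Il1rap, the accessory chain of the interleukin-1 receptor, stood at 1.21, 0.91 and 1.21 in normoxia, at 4.49, 4.40 and 4.44 in hypoxia and at 1.66, 1.74 and 1.75 with quercetin. It kept 0.61 ± 0.10 over normoxia (adjusted p = 0.0017), which did not pass under spike-in scaling (0.17) or normexp (0.49). Tnfrsf14, a receptor of the lymphotoxin family, was above background in hypoxia only, at least 12.5-fold over normoxia and at least 6.97-fold over quercetin, while its other tested probe gave smaller steps of 1.39 and -1.45 (log2). Gzmc, a granzyme, and Serpinb1a, a serine protease inhibitor, come from gene families with near-identical copies and did not pass against normoxia. Of 28 other tested cytokine, chemokine and adhesion genes, 3 rose in hypoxia and 19 fell, beside 34.6% and 29.7% of all tested probes. With quercetin 2 rose and 15 fell, beside 27.3% and 31.4%.

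Receptors and signalling genes held several of the largest steps. Notch4, a Notch receptor best known from endothelium, stood at -0.25, -1.88 and -0.28 in normoxia, at 3.72, 3.72 and 3.82 in hypoxia and at -0.23, 0.03 and -0.23 with quercetin. Quercetin arrays lay just above the top of the normoxia range, which replicate 2 stretched downwards (0.66 ± 0.38, adjusted p = 0.20). Gipr, the receptor of the gut hormone GIP, stood at -5.27, -5.38 and -6.69 in normoxia, at -0.91, -0.72 and -0.85 in hypoxia and at -4.93, -5.04 and -4.12 with quercetin. Its step of 4.95 ± 0.38 was among the 3 largest, while its excess over normoxia with quercetin (1.08 ± 0.38, adjusted p = 0.048) was lost under 15 of the 19 alternatives that tested it, among them leaving out any single array but normoxia replicate 1 or 2. Ramp3, a partner of the adrenomedullin receptor, stood at -2.02, -1.11 and -2.16 in normoxia, at 0.73, 0.55 and 0.55 in hypoxia and at -3.39, -3.17 and -3.45 with quercetin. All quercetin arrays lay below all normoxia arrays (-1.57 ± 0.25, adjusted p = 0.0013), a call lost with normexp (-0.50) and kept in the other 19 alternatives. Cpne5, a calcium-dependent membrane-binding copine, was lower with quercetin than in normoxia (-1.81 ± 0.48, adjusted p = 0.015), with 2 quercetin arrays above background. Kcnk6, a background potassium channel of the tandem-pore family, stood at -2.52, -3.00 and -2.41 in normoxia, at -0.54, -0.56 and -0.52 in hypoxia and at -3.00, -2.80 and -2.68 with quercetin. The quercetin arrays lay within the normoxia range but below normoxia replicates 1 and 3, and the 95% interval of the difference was -0.54 to 0.18. Without normoxia replicate 2 the gene no longer met the rule. Of 24 other tested channel genes 11 rose and 9 fell in hypoxia, beside 34.6% and 29.7% of all tested probes. With quercetin 5 rose and 11 fell, beside 27.3% and 31.4%. In hypoxia spike-in scaling turned the balance to 6 higher and 10 lower, and normexp gave 5 and 4. Arhgef19, a guanine nucleotide exchange factor, and Tnik, a kinase of the Wnt pathway, differed from normoxia by -0.25 ± 0.13 and -0.23 ± 0.17, Gng13, a G protein γ subunit, by 0.40 ± 0.17 and Guca1a, an activator of guanylate cyclase, by 0.08 ± 0.57; none passed. Rasl10a, a small GTPase, was lower (-0.60 ± 0.18, adjusted p = 0.024), a call lost without quercetin replicate 1 (-0.52) or 3 (-0.59).

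Members known mainly from neurons numbered 6, and 0 of them passed against normoxia (limma), beside 44.6% of all tested probes. Of these 6, 0 had an unadjusted p under 0.05 either, beside at least 44.6% of all tested probes, as adjusting never lowers a p-value. Only 1 of the 6 was well above background on all 9 arrays, so a full return to normoxia is not read from these counts. Slc32a1, the vesicular transporter of GABA and glycine, stood at -3.71, -4.14 and -3.15 in normoxia, at -2.91, 3.02 and -3.10 in hypoxia and at -2.84, -3.52 and -3.47 with quercetin. It was high on hypoxia replicate 2 alone; the other hypoxia arrays lay among the quercetin arrays, so its place in the set rests on 1 array. Stmn2, the microtubule regulator stathmin-2, stood at -3.69, -3.67 and -2.70 in normoxia, at -1.43, 0.33 and -1.70 in hypoxia and at -4.28, -3.59 and -3.99 with quercetin. Here too hypoxia replicate 2 stood apart, and without that array neither gene met the rule. Lgi2, a secreted leucine-rich protein, was above background on no quercetin array and at least 2.11-fold lower than in hypoxia. St8sia2, which builds polysialic acid, and Rundc3b lay -0.37 and 0.70 from normoxia. Of 15 other tested neuronal genes 7 rose and 1 fell in hypoxia, beside 34.6% and 29.7% of all tested probes. With quercetin 5 rose and 6 fell, beside 27.3% and 31.4%. In hypoxia spike-in scaling gave 3 higher and 2 lower, and normexp gave 2 and 1 at both steps.

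The largest hypoxia steps, those of Fhad1 and Myoc, belonged to genes of other kinds. Fhad1, a protein with a forkhead-associated domain, was above background on no normoxia array and on 1 quercetin array. It was at least 25.1-fold higher in hypoxia and at least 1.25-fold higher with quercetin than in normoxia (adjusted p = 4.7e-04). The latter call was lost under 3 of the 19 alternatives that tested it, among them the deposited value table (0.78, log2) and normexp (0.47). Myoc, the secreted protein myocilin, stood at -4.53, -5.52 and -3.72 in normoxia, at 0.97, 0.88 and 0.61 in hypoxia and at -2.99, -2.38 and -2.57 with quercetin. The hypoxia step of 5.41 ± 0.39 was followed by -3.47 ± 0.39, which left 1.94 ± 0.39 over normoxia (adjusted p = 0.0046), lost with scan day as a block (1.07) and with normexp (0.68). Clmn, the actin-binding protein calmin, stood at -5.60, -5.97 and -4.97 in normoxia, at -0.96, -1.13 and -1.09 in hypoxia and at -2.49, -4.27 and -3.79 with quercetin. It too stayed above normoxia on every quercetin array (2.00 ± 0.43, adjusted p = 0.0058), and quercetin replicate 1 stood above the other 2; scan day as a block (1.45) and normexp (0.68) lost the call. Nucb1, a calcium-binding protein of the Golgi, stood at -1.56, -1.56 and -1.34 in normoxia, at 1.77, 1.66 and 1.69 in hypoxia and at -0.44, -0.61 and -0.46 with quercetin. Its 0.98 ± 0.10 over normoxia (adjusted p = 1.2e-04) held under the 19 alternatives that tested its probe, while its other probe gave 1.32 and -0.56 for the 2 steps. Dennd2d, an activator of Rab GTPases, stood at -2.08, -2.18 and -2.14 in normoxia, at 0.04, 0.11 and -0.10 in hypoxia and at -4.36, -4.70 and -5.05 with quercetin. After Ccl19 it had the lowest quercetin minus normoxia difference of the set, -2.57 ± 0.16 (adjusted p = 1.9e-05), with 2 quercetin arrays above background. Normexp lost that call (-0.59). Samd14, a sterile alpha motif protein, was lower with quercetin than in normoxia (-1.25 ± 0.31, adjusted p = 0.011), and its 3 other tested probes gave -0.21, -1.17 and -0.37. None of these 3 probes met the rule, and without normoxia replicate 2 or hypoxia replicate 1 or 3 the gene no longer met it. Pion, now named Gsap, a regulator of γ-secretase, was lower with quercetin than in normoxia too (-0.61 ± 0.10, adjusted p = 0.0019). Of the secreted proteins, Adamts14, a procollagen protease, was lower by a margin that 15 alternatives lost (-0.43 ± 0.15, adjusted p = 0.048), and Tinagl1, a matrix protein, had an interval of -0.21 to 0.71. Fam89a, Tmem106a and Ypel4, of less certain role, differed from normoxia by 0.33, -0.30 and -0.32 and did not pass.

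Among nuclear and RNA genes, H19, an imprinted long noncoding RNA, stood at -0.12, -0.68 and 0.19 in normoxia, at 3.07, 2.80 and 2.81 in hypoxia and at 0.13, -0.03 and 0.34 with quercetin. The outer groups overlapped (0.35 ± 0.21, adjusted p = 0.21). Tcea3, a transcription elongation factor, stood at -0.06, -0.23 and 0.11 in normoxia, at 2.35, 2.32 and 2.26 in hypoxia and at -0.68, -0.66 and -0.55 with quercetin. It was lower with quercetin than in normoxia on arrays that did not overlap (-0.57 ± 0.10, adjusted p = 0.0024), and this call held under all 20 alternatives, as it did for Lamb3 and Pgf; apart from Nucb1, no other of the 35 kept its call in every alternative that tested it. Hltf, a helicase-like factor of replication repair, stayed 0.67 ± 0.16 above normoxia (adjusted p = 0.0095). Its 2 other probes gave smaller hypoxia steps of 0.73 and 1.10 and quercetin steps of only -0.22 and -0.34. The call for Hltf was lost under 3 of the 19 alternatives that tested it, among them spike-in scaling (0.23) and normexp (0.46). Rbm11, a splicing regulator, was above background on no normoxia array and at least 4.45-fold higher in hypoxia; its excess with quercetin, at least 1.34-fold (adjusted p = 0.027), was lost under 11 of the 19 alternatives that tested it, among them leaving out any normoxia array or quercetin replicate 2 or 3. Hist2h4, an H4 histone gene now named H4c14 that has near-identical copies, differed from normoxia by -0.05 ± 0.18.

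The genes that came back closest to normoxia, by the narrowest 95% interval around 0, were Atxn7l1, Fam168a, Hist2h4, Arhgef19, Kcnk6 and Cpxm2. Atxn7l1, an ataxin-7-like protein, stood at -4.46, -4.66 and -4.34 in normoxia, at -1.39, -1.75 and -1.58 in hypoxia and at -4.45, -4.50 and -4.38 with quercetin. Its quercetin arrays lay inside the normoxia range, with an interval of -0.23 to 0.32. Only 2 of these quercetin arrays were well above background, and signal near background limits this comparison. Fam168a stood at -1.18, -1.33 and -1.06 in normoxia, at 1.14, 0.93 and 0.95 in hypoxia and at -1.04, -0.88 and -1.02 with quercetin. Quercetin arrays lay just above the top of the normoxia range, and the interval was -0.03 to 0.45. For Cpxm2, a carboxypeptidase-like secreted protein, the interval was -0.55 to 0.19. The 2 other tested probes of Fam168a gave steps of 1.26 and -1.65 and of 0.44 and -0.14. Fam168a was also the gene nearest the threshold: in the value table its hypoxia step was 2.20 and its quercetin step only just reached the limit, as did that of Nt5e, whose hypoxia step was 3.25. Sox6 (2.00 and -3.44), Samd14 (2.02 and -3.32), Map7 (2.71 and -2.08) and Acta1 (2.29 and -2.08) came next inside. Just outside were Cpm (2.34 and -1.99), Mup5 (1.99 and -2.12), Crabp1 (1.98 and -2.73), Arrdc2 (2.88 and -1.96), Aldoc (2.70 and -1.96) and Me3 (1.95 and -3.11).

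Some members are neighbours on a chromosome. Myh3, Myh2 and Myh1 follow each other on chromosome 10 with no protein-coding gene between them. The next genes before them, Sco1, Adprm and Tmem220, changed in hypoxia by 0.08 ± 0.14 (adjusted p = 0.62), 0.58 ± 0.13 (0.0053) and 0.88 ± 0.18 (0.0032), and the myosin genes after them, Myh4, Myh8 and Myh13, were too dim to be tested. On chromosome 13 G0s2 and Lamb3 are adjacent and lie on opposite strands. Of the 3 protein-coding genes before G0s2, Hsd11b1, which regenerates glucocorticoids, fell by 0.50 ± 0.16 in hypoxia (adjusted p = 0.026) and did not pass with quercetin (-0.05 ± 0.16, adjusted p = 0.80), Traf3ip3 was not tested and C13h1orf74 had no probe. Camk1g, a calmodulin kinase on the far side of Lamb3, rose by 2.43 ± 0.14 (adjusted p = 5.4e-06) and fell with quercetin (-1.52 ± 0.14, adjusted p = 5.5e-05), while the next gene, the semaphorin receptor Plxna2, ran the opposite way with -2.99 ± 0.33 (adjusted p = 9.4e-05) and 2.53 ± 0.33 (2.9e-04). Hist2h4 and Txnip lie 4 protein-coding genes apart on chromosome 2. These neighbours were looked up after the members were known.

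**Figure D5:**
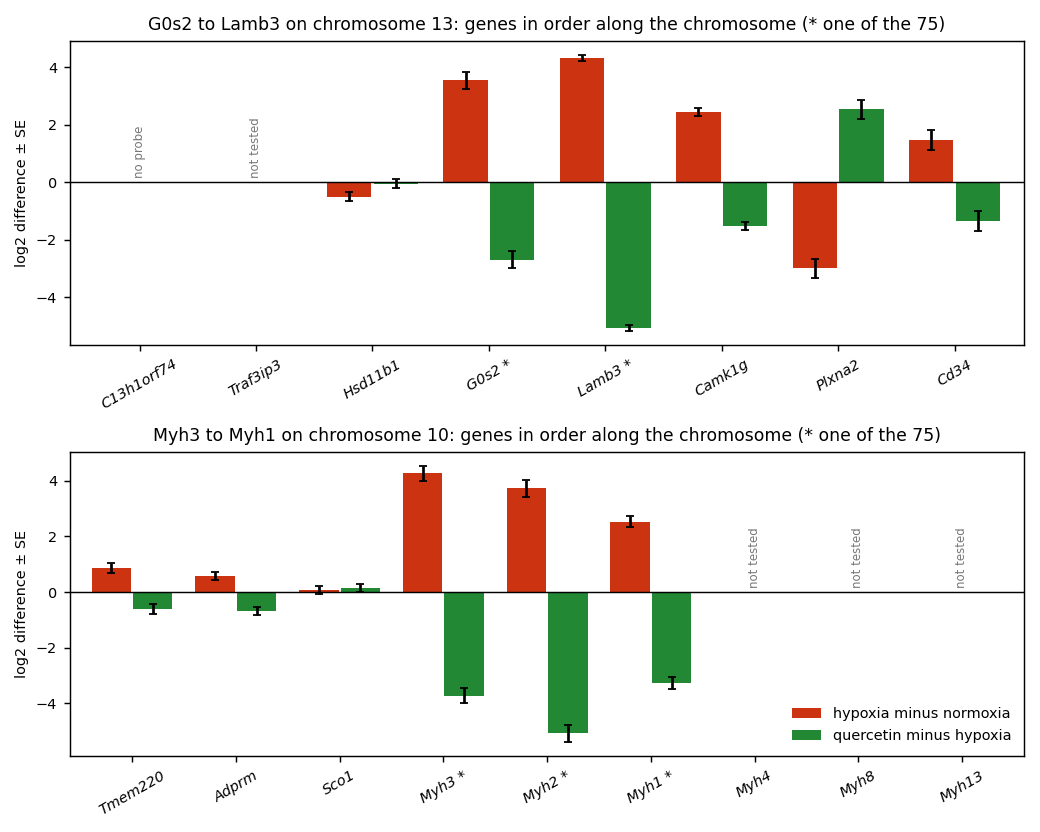
Hypoxia minus normoxia and quercetin minus hypoxia (log2 ± SE) for genes in their order along chromosomes 13 and 10, with genes of the set starred; spacing is by order, not distance. On chromosome 13 Hsd11b1, beside G0s2, does not share the pattern of the starred genes, and Camk1g beside Lamb3 moves the same way at smaller size.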

How the data were processed

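Single-colour Agilent rat gene arrays of 9 samples (3 per group) were deposited as scanner files and as a value table. Per the file headers, the authors extracted each array with a gene expression protocol of Agilent's Feature Extraction software, which gave background-subtracted processed intensity values; the labels name a microRNA labelling kit, so the labelling chemistry is not certain. The value table deposited by the authors holds log2 values whose medians are all 5.72 and whose normalization the sources used here do not give; set against the scanner values of the same array it correlated at 0.991 or higher.

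Members were chosen from the value table. Of these, 3 count in every total but are not reported here by name. For levels and tests, log2 of the processed intensity was averaged over the spots of a probe, with outlier spots left out (71 to 148 per array), and the 75th percentile of the array over 41012 non-control probes was subtracted. The 26646 probes (65.0%) whose signal was well above background throughout 1 group or more were fitted with limma 3.58.1 in R 4.3.3 (3 group means, 9 arrays, lmFit and eBayes), with Benjamini-Hochberg adjustment over all of them and a threshold of 0.05; other tables were made in Python 3.11.15. The fit was tested on simulated data. Residual degrees of freedom were 6, and the number of arrays limits the precision.

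Where a group had no array well above background, the fold is a bound: the brighter group's mean against, per array, the higher of the lowest well-above-background signal and the probe's own signal. The members and gene lists were chosen with earlier results of these data known. Named are members on a gene list, those with the 10 largest hypoxia differences, the 6 largest quercetin minus normoxia differences past the threshold in each direction, the 6 with the narrowest interval around 0, genes at the edge of the rule, and up to 4 other genes per list with the smallest adjusted p; all other named genes, and the grouping by role, were chosen after their values were seen. Alternatives were another background correction (normexp, offset 50), other scalings, other filters, the value table, blocks for slide, scan day and replicate number, and each array left out. Replicate numbers do not pair the samples: deviations of same-numbered arrays from their group means correlated at -0.27 to 0.02.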

Additional observations from a re-analysis of the deposited data

How the results depend on the processing

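Of the 35 genes that differed from normoxia with quercetin, 3 (Lamb3, Tcea3 and Pgf) passed in the same direction under all 20 alternatives, Nucb1 did under the 19 that tested its probe, and 11 more lost the call under normexp background correction and in no other alternative that tested them. Those 11 were Ccl19, Ceacam10, Cpne5, Dennd2d, Myh2, Nt5e, Pion, Ramp3, Samd14, Sox6 and Tmod1. With normexp, 4 genes passed as higher and 2 as lower, calls over all probes were 8090, 7422 and 3745 against 17139, 15632 and 11879 for hypoxia minus normoxia, quercetin minus hypoxia and quercetin minus normoxia, and the last difference changed sign for 17 of the 75 genes, among them, of the lower genes reported, Sox6 (0.12), Pion (0.015), Rasl10a (0.025) and Adamts14 (0.32); the cause was not tested. Spike-in scaling gave 10 higher and 29 lower. With scan day as a block 7 genes were higher, and 6878 probes passed. Requiring all 9 arrays well above background, which leaves 39 of the genes, gave 15 higher and 5 lower. Leaving out 1 array at a time gave 12 to 20 higher and 12 to 23 lower genes (12 lower without quercetin replicate 3, 23 without normoxia replicate 2), and 14934 to 17419, 13353 to 16980 and 9308 to 11958 calls over all probes. With replicate number as a block, in a design where the numbers do not pair the samples, 19 genes were higher and 14 lower, and 15982, 14519 and 10289 probes passed. The slide as a fixed block left 11573 calls for hypoxia minus normoxia. The rule itself gave 184 genes at a threshold of 1.5, 28 at 2.5 and 69 to 84 with 1 array left out. Without normoxia replicate 2, 6 of the 75 genes no longer met it: Ankrd37, Kcnk6, Ppp1r3b, Samd14, Sox6 and Txnip. Signal near background limits the genes outside those 39, which were not above background on all 9 arrays.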

Other observations

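A further 24 probes met the same thresholds but carried no gene symbol. Tested against normoxia with quercetin (limma, adjusted over all tested probes), 4 were higher, 2 were lower and 18 did not pass. Of all tested probes 22.8% were higher and 21.8% lower. The 24 probes differed from normoxia by -1.15 to 1.30 (log2), with a median of 0.12. One of them, listed under a locus name and now named C19h16orf74, lay 3.00 ± 0.27 (log2) above normoxia in hypoxia and 0.67 ± 0.27 above it with quercetin (adjusted p = 0.074). Another, now named Phf24, lay 4.19 above normoxia in hypoxia and 0.72 above it with quercetin (adjusted p = 0.30). Both were picked after their values were seen.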
